A study of Mus musculus with 19 samples.

Results

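Chaperones of the heat shock protein (HSP), J-domain (DnaJ) and CCT families were followed in mouse C57BL/6 organoids grown from lung adenocarcinoma (LUAD) and from alveolar type 2 (AT2) cells. AT2 cells secrete surfactant and renew the alveolar epithelium. A gene was a member when its name in the authors' lists of translated open reading frames (ORFs) began with Hsp, Dnaj or Cct and a digit, and when it was neither Hspb8 nor Hspg2. This gave 45 members among 7384 genes named in those lists, of which 29 work in the cytosol or nucleus, 11 in the endoplasmic reticulum (ER) and 5 in mitochondria. Each group was plated for 48 hours in lung organoid medium and received cycloheximide, an elongation blocker, at 100 µM for 5 minutes. Ribosome footprints came from 4 LUAD and 3 AT2 libraries, RNA from 4 LUAD and 3 AT2 libraries, and ORF lists from 3 LUAD libraries, titled KP in the labels, and 2 AT2 libraries. Footprints, the RNA fragments that ribosomes protect, came from RiboLace, which captures actively translating ribosomes. The labels give no allele, passage or clone for either kind of organoid. Nothing in the labels says that libraries of a kind came from separate cultures, so the spread behind every p-value below is that between these samples and may be technical.

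Chaperones bind proteins that are not yet folded or have lost their fold. HSP70 proteins grip short exposed stretches under the control of ATP, J-domain proteins bring them clients and trigger ATP hydrolysis, and HSP110 proteins act as nucleotide exchange factors that release the client. HSP90 proteins act late, on kinases, steroid receptors and other signalling clients, and the ring-shaped CCT complex folds actin and tubulin. The ER has its own HSP70 and HSP90, which fold secreted and membrane proteins such as those AT2 cells make in quantity, and mitochondria have their own set. Cytosolic and ER members are known targets of separate stress responses, the heat shock response and the unfolded protein response.

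Footprint libraries held from 4.80 to 14.25 M estimated counts in LUAD and from 3.03 to 3.83 M in AT2. RNA libraries held from 27.18 to 33.20 M in LUAD and from 4.12 to 10.23 M in AT2. Values below are counts scaled to library size (CPM) of one gene compared between libraries, or transcript abundances (TPM), which are per length, where levels of several genes are set side by side. The first AT2 footprint library stood apart, with a summed TPM of 2020 over all members, against 10829 and 10368 in the other AT2 libraries and 8414 to 11398 in LUAD. Markers of AT2 cells (7 of 11 listed genes were paired with transcripts) summed to between 236 and 265 CPM in LUAD RNA and between 1637 and 3211 CPM in AT2 RNA, and 1 of the 7 was at 0 in each group. Of 8 fibroblast markers listed, only Bgn could be read. It stood between 198 and 412 CPM in LUAD RNA and between 0.0 and 1.55 CPM in AT2 RNA. Of 8 leukocyte markers listed, 2 could be read, Cd14 and Mrc1. Together they reached 150 to 200 CPM in LUAD RNA and 6.78 to 19.4 CPM in AT2 RNA. Markers could be read only if the ORF lists name them, which favours genes translated in LUAD. In bulk samples, fewer cells of a type and less RNA per cell cannot be told apart, and the part of other cell types in the results below was not tested.

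The share of chaperones that changed was close to that of all genes. ER members were called only lower in LUAD, whereas cytosolic and mitochondrial members had calls in both directions over the assays. In footprints, 8 of 42 members tested (19.0%) passed an adjusted p of 0.05 in edgeR's quasi-likelihood test, beside 21.3% of all 6814 genes tested. Of these 8, 5 were higher in LUAD (9.47% of all genes were) and 3 were lower (11.8% of all genes were). In RNA, 15 of 43 members (34.9%) passed, beside 37.0% of all 6942 genes, with 8 higher and 7 lower against backgrounds of 19.0% higher and 18.0% lower. The cytosolic class had 5 footprint and 7 RNA members higher in LUAD, with 0 lower in footprints and 2 in RNA, whereas the ER class had 2 footprint and 5 RNA members lower and 0 higher in either. LUAD lists alone brought in 37.9% of cytosolic and 54.5% of ER members, and AT2 lists alone 0.0% and 18.2%. Over all genes these shares were 56.7% and 7.7%. Members from LUAD lists alone were called higher (Hsp90aa1, Dnajc13, Hspa8, Hspa9) and lower (Dnajc1, Dnajc3, Dnajc5). The part of this entry in the counts was not tested. The median log2 fold change of LUAD over AT2 in RNA was 0.40 over 28 cytosolic members, -0.56 over 10 ER members and 0.80 over 5 mitochondrial members, against 0.04 over all genes. In footprints the medians were 0.28, -0.77 and 0.21 in the same order, against -0.02 over all genes. A scaling on all transcripts moved the median of all genes by 0.17 in both assays. Under it the RNA calls of the members split into 14 higher and 4 lower, beside 25.9% of all genes called higher and 13.1% called lower (39.0% in all). By compartment they were 12 higher and 1 lower in the cytosol, 0 and 3 in the ER and 2 and 0 in mitochondria.

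**Figure D1:**
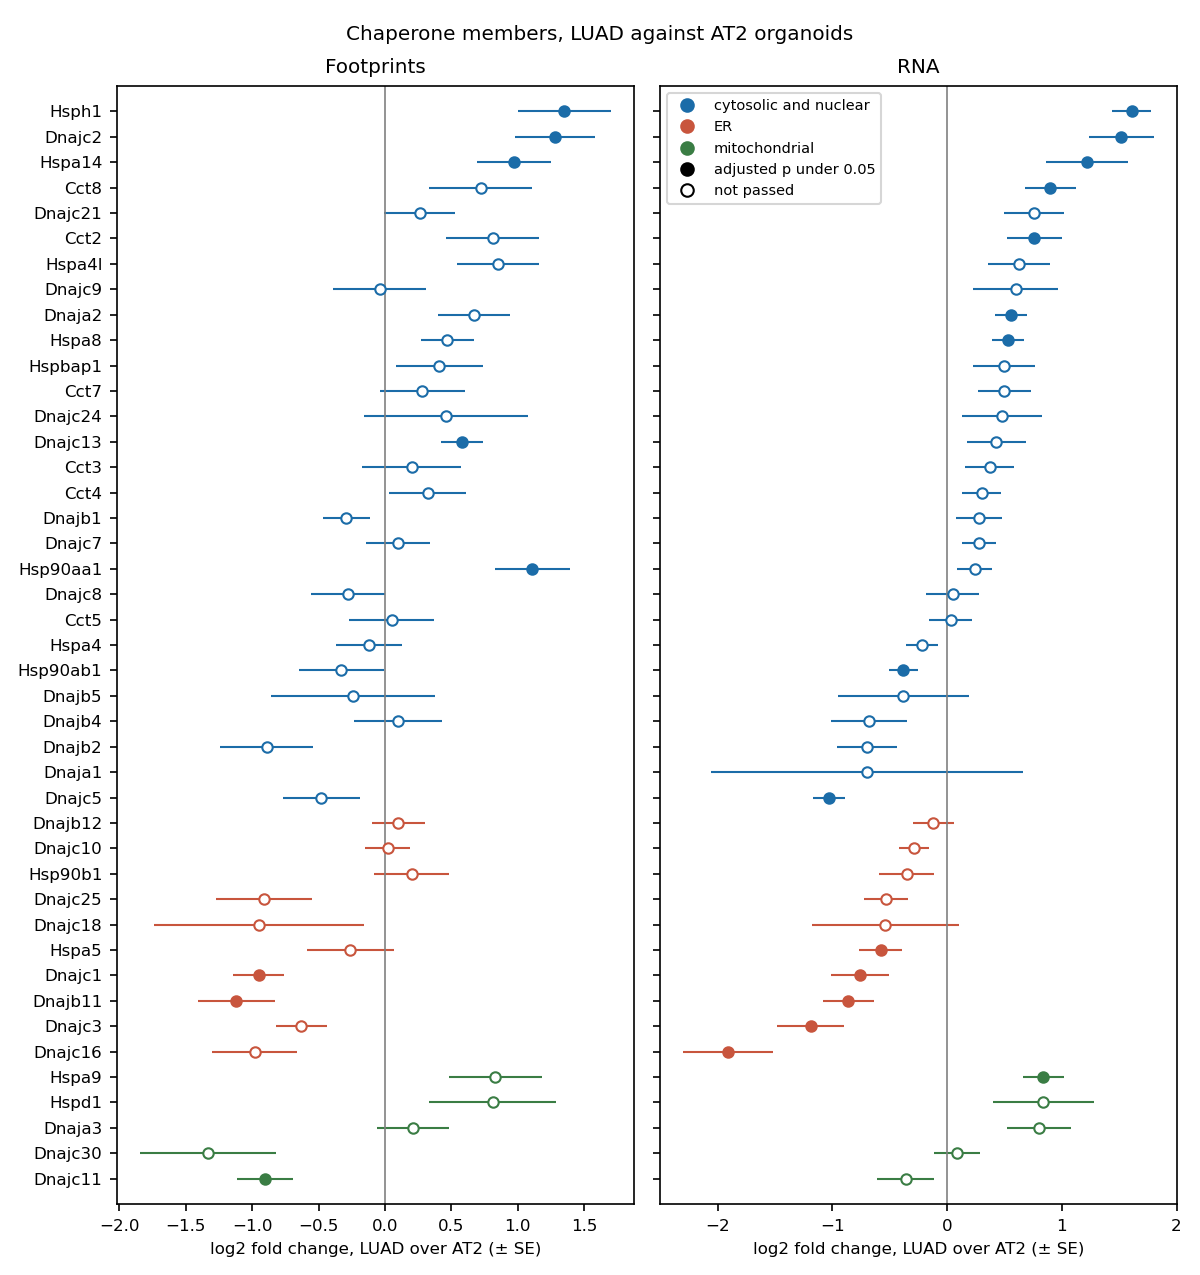
Log2 fold change of LUAD over AT2 (± SE) for every member that passed the filter on low counts, in footprints (left) and RNA (right), coloured by compartment and ordered by the RNA value, with filled points past an adjusted p of 0.05. All 10 ER members lie below 0 in RNA, and 21 of 28 cytosolic members lie above it.

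Most cytosolic chaperone RNA belonged to a pair of genes. Hspa8, the constitutive cytosolic HSP70, averaged 2453 ± 362 TPM in LUAD RNA (SD, n = 4), rank 35 of 7266 genes, and 1826 ± 65.0 TPM in AT2 RNA (n = 3), rank 42. Hsp90ab1, the constitutive HSP90, averaged 1691 ± 330 TPM in LUAD RNA, rank 44, and 2347 ± 347 TPM in AT2 RNA, rank 34. Their order was thus Hspa8 first in LUAD and Hsp90ab1 first in AT2, by differences of about the spread between libraries or more. In footprints Hsp90ab1 led in both kinds of organoid, with 2585 ± 373 TPM in LUAD, rank 7, and 3102 ± 2118 TPM in AT2, rank 9. The large AT2 spread comes from the first library. Both genes, like Hsp90aa1 and Hspd1, have processed pseudogenes in the mouse genome with which they can share reads, so their levels are uncertain to that extent.

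Hspa8 rose in LUAD RNA, at 7724, 8490, 7876 and 7694 CPM in LUAD and 5099, 5110 and 6345 CPM in AT2. Every LUAD library lay above every AT2 library, with a log2 fold change of 0.53 ± 0.14 (SE) and an adjusted p of 0.0198 in edgeR's test. Its footprints stood at 2699, 2862, 3560 and 3849 CPM in LUAD and 2315, 2458 and 2260 CPM in AT2, again without overlap, but the log2 fold change of 0.47 ± 0.20 did not pass (adjusted p = 0.143). Hsp90ab1 went the other way in RNA, at 6405, 6501, 5549 and 5655 CPM in LUAD and 7857, 7766 and 7868 CPM in AT2. All LUAD libraries were below all AT2 libraries, with a log2 fold change of -0.38 ± 0.13 and an adjusted p of 0.0475. That call was lost with scaling on all transcripts (adjusted p = 0.232). Its footprints overlapped between groups, with 6096, 5983, 9160 and 9750 CPM in LUAD and 6084, 11240 and 11859 CPM in AT2 (log2 fold change -0.33 ± 0.32, adjusted p = 0.507).

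Hsp90aa1, the stress-inducible HSP90, differed in footprints. It had 872, 1125, 1466 and 1529 footprint CPM in LUAD and 468, 761 and 501 CPM in AT2. The groups did not overlap, and the log2 fold change was 1.11 ± 0.28 (adjusted p = 0.0271). Its RNA stood at 1643, 1863, 2079 and 1981 CPM in LUAD and 1772, 1658 and 1363 CPM in AT2, which overlap, with a log2 fold change of 0.24 ± 0.15 (adjusted p = 0.248). The difference between those changes, tested as footprints per RNA over all 14 libraries, was 0.95 ± 0.33 on the log2 scale, with an unadjusted p of 0.012 and an adjusted p of 0.197, and so did not pass.

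The HSP110 member Hsph1, a nucleotide exchange factor for HSP70 induced by heat, had the largest RNA rise of any tested member. Hsph1 (chr5:149616843-149636498, GRCm38.p6, minus strand) reached 427, 444, 326 and 378 RNA CPM in LUAD and 144, 119 and 123 CPM in AT2. The lowest LUAD library was well above the highest AT2 library, with a log2 fold change of 1.61 ± 0.17 (adjusted p = 0.000342). Its footprints were 884, 916, 1009 and 1079 CPM in LUAD and 175, 456 and 507 CPM in AT2, also without overlap, with a log2 fold change of 1.35 ± 0.35 (adjusted p = 0.0298). The related Hspa4, also an HSP110 protein, had a log2 fold change of -0.22 ± 0.14 in RNA (adjusted p = 0.237) and -0.12 ± 0.25 in footprints (adjusted p = 0.767). Hspa4 RNA was 258, 265, 281 and 286 CPM in LUAD, below the 354, 293 and 304 CPM in AT2.

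Dnajc2 and Hspa14 form the mammalian ribosome-associated complex, which meets nascent chains as they leave the ribosome, and both rose in both assays. Dnajc2 RNA was 230, 234, 329 and 317 CPM in LUAD and 66.6, 85.9 and 139 CPM in AT2. The groups were apart, by 1.52 ± 0.28 on the log2 scale (adjusted p = 0.00458). Dnajc2 footprints were 117, 127, 174 and 195 CPM in LUAD and 38.2, 75.6 and 74.1 CPM in AT2, apart by 1.28 ± 0.30 (adjusted p = 0.0214). Hspa14 RNA was 109, 118, 214 and 206 CPM in LUAD and 51.0, 53.3 and 106 CPM in AT2, where the third AT2 library came close to the first LUAD library (log2 fold change 1.22 ± 0.36, adjusted p = 0.0315). Hspa14 footprints were 131, 138, 240 and 233 CPM in LUAD and 88.1, 112 and 83.9 CPM in AT2, with a log2 fold change of 0.97 ± 0.28 (adjusted p = 0.0431). Hspa14 was read from a single transcript in these tables.

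Among the other cytosolic J-domain genes, 3 more passed in an assay. Dnaja2, a general HSP70 partner, rose in RNA to 367, 392, 414 and 424 CPM in LUAD, against 252, 267 and 292 CPM in AT2 (log2 fold change 0.56 ± 0.14, adjusted p = 0.0133). Dnajc5, the cysteine string protein of secretory vesicles, fell in RNA, with 82.7, 90.4, 98.3 and 83.3 CPM in LUAD and 170, 181 and 191 CPM in AT2. The libraries of each kind lay close together and far from the other kind, at -1.03 ± 0.14 on the log2 scale (adjusted p = 0.00113). Dnajc5 footprints did not pass, at -0.48 ± 0.29 (adjusted p = 0.281). Dnajc13, an endosomal protein, rose in footprints, with 240, 250, 218 and 211 CPM in LUAD and 147, 167 and 147 CPM in AT2 (log2 fold change 0.58 ± 0.16, adjusted p = 0.0371). Its RNA change of 0.43 ± 0.26 did not pass (adjusted p = 0.226). Dnajb1, the heat-inducible HSP40, passed in neither assay, at 0.28 ± 0.20 in RNA (adjusted p = 0.296) and -0.29 ± 0.18 in footprints (adjusted p = 0.308). The lists tie only a noncoding-type transcript to Dnaja1, another HSP40, so its RNA values, at most 1.40 CPM in LUAD and at most 3.49 CPM in AT2, do not speak for its coding transcript.

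Of the CCT ring, 6 subunits could be tested as members, and Cct2 and Cct8 rose in RNA. The ring subunit Tcp1 falls outside the name rule and was tested with the other machinery. Its log2 fold change was 0.25 ± 0.20 in RNA (adjusted p = 0.366) and 0.15 ± 0.30 in footprints (adjusted p = 0.758). Cct8 RNA was 526, 564, 812 and 834 CPM in LUAD and 329, 339 and 436 CPM in AT2, without overlap (log2 fold change 0.90 ± 0.22, adjusted p = 0.0148). Cct2 RNA was 1189, 1226, 1596 and 1559 CPM in LUAD and 658, 674 and 1144 CPM in AT2 (log2 fold change 0.76 ± 0.24, adjusted p = 0.0376), and its AT2 library 3 lay just under the lowest LUAD library. The other 4 member subunits had RNA log2 fold changes that did not pass, among them Cct3 at 0.37 ± 0.21 (adjusted p = 0.204) and Cct5 at 0.03 ± 0.19 (adjusted p = 0.908). In footprints no subunit passed and all 6 values were positive, with a median of 0.30, but without the first AT2 library only 4 were positive, Cct3 and Cct5 turned negative, and the median was 0.04. With scaling on all transcripts 5 of the 6 passed in RNA, where 39.0% of all genes did. The transcripts of Cct6a are not in the count tables, so that subunit was not analysed here in counts.

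**Figure D2:**
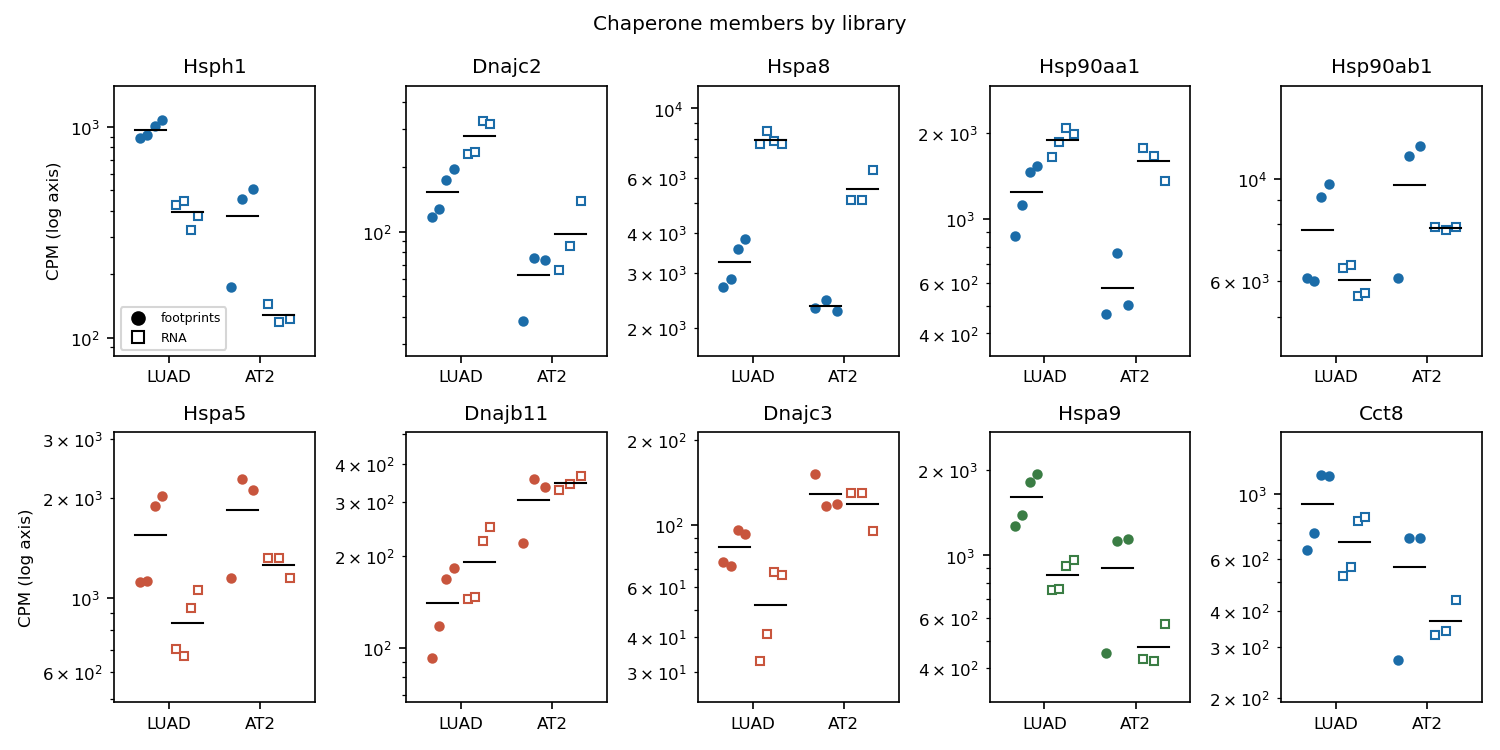
CPM (log axis) of 10 members in each LUAD and AT2 library, with filled circles for footprints, open squares for RNA and a line at each mean. Hsph1, Dnajc2, Hspa8 and Hspa9 lie higher in every LUAD library than in any AT2 library, and Dnajb11 and Dnajc3 lie lower in every one.

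Of the 10 ER members tested, 5 fell in LUAD RNA (50%, beside 37.0% of all genes called in either direction and 18.0% called lower) and 2 fell in footprints (20%, beside 21.3% and 11.8%), and none rose. In RNA all 10 log2 fold changes were negative. Under scaling on all transcripts 9 were negative and 3 passed (30%), beside 39.0% of all genes called and 13.1% called lower. In footprints 7 of the 10 were negative under either scaling. The ER members that passed were Hspa5, the ER HSP70 known as BiP, and its J-domain partners Dnajb11, Dnajc1 and Dnajc3, as well as Dnajc16, a less studied ER J-domain protein. Hsp90b1, the ER HSP90 known as GRP94, did not pass.

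Dnajb11, which delivers unfolded proteins to BiP, fell in both assays. Its RNA was 144, 146, 223 and 248 CPM in LUAD and 328, 343 and 363 CPM in AT2, apart by -0.86 ± 0.22 on the log2 scale (adjusted p = 0.0187). Its footprints were 92.1, 118, 167 and 182 CPM in LUAD and 220, 356 and 336 CPM in AT2, apart by -1.12 ± 0.29 (adjusted p = 0.0279). The highest LUAD library was below the lowest AT2 library in either assay. Dnajc1, an ER membrane protein that contacts ribosomes, also fell in both, with 39.1, 42.3, 47.0 and 45.6 footprint CPM in LUAD and 96.1, 72.8 and 84.7 CPM in AT2 (log2 fold change -0.95 ± 0.19, adjusted p = 0.0102). Dnajc1 RNA was 24.8, 20.9, 28.1 and 30.7 CPM in LUAD and 58.2, 39.6 and 34.1 CPM in AT2 (log2 fold change -0.76 ± 0.25, adjusted p = 0.0416). That RNA call was lost with the replicate number as a block (adjusted p = 0.0557), with scaling on all transcripts (adjusted p = 0.0952) and on coding-type transcripts alone (adjusted p = 0.166).

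BiP itself, Hspa5 (chr2:34772090-34776529, plus strand), fell in RNA, with 703, 673, 936 and 1061 CPM in LUAD and 1317, 1317 and 1145 CPM in AT2. The groups were apart by a narrow margin, at -0.58 ± 0.19 on the log2 scale (adjusted p = 0.0455). The call was lost with scaling on all transcripts (adjusted p = 0.103) and on coding-type transcripts alone (adjusted p = 0.0572). Hspa5 footprints were 1118, 1128, 1892 and 2023 CPM in LUAD and 1148, 2268 and 2104 CPM in AT2, which overlap (log2 fold change -0.26 ± 0.33, adjusted p = 0.628). Dnajc3, which inhibits the kinase PERK and also assists BiP, had 32.8, 40.9, 67.9 and 66.5 RNA CPM in LUAD and 130, 130 and 95.0 CPM in AT2 (log2 fold change -1.19 ± 0.29, adjusted p = 0.0138). Its footprints were lower in every LUAD library, at 73.8, 71.6, 96.0 and 93.1 CPM in LUAD and 152, 117 and 119 CPM in AT2, but the change of -0.63 ± 0.19 just missed the threshold (adjusted p = 0.0527). Dnajc16 had the largest fall of any member tested, with 4.63, 6.45, 3.76 and 4.12 RNA CPM in LUAD and 23.9, 16.8 and 12.8 CPM in AT2 (log2 fold change -1.91 ± 0.39, adjusted p = 0.00652). Its footprint change of -0.98 ± 0.32 did not pass (adjusted p = 0.0614). Dnajc16 was a rare transcript, averaging 0.546 TPM in LUAD RNA and 2.23 TPM in AT2 RNA. Dnajc16 also became a member through an AT2 list alone, the kind of organoid in which it is higher. Hsp90b1 RNA was 705, 706, 904 and 1013 CPM in LUAD and 1262, 1220 and 694 CPM in AT2, where the third AT2 library fell below every LUAD library (log2 fold change -0.35 ± 0.24, adjusted p = 0.29). Without that library the value was -0.58 (adjusted p = 0.0336). Hsp90b1 footprints had a log2 fold change of 0.20 ± 0.28 (adjusted p = 0.652).

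The unfolded protein response acts on ER chaperone genes through a promoter motif, the ER stress response element, and 3 ER members carry it. RefSeq promoters (GRCm38.p6) were found for 35 of the 45 members, and the 250 bases before each start were searched on both strands for CCAAT and CCACG separated by 9 bases of any kind. It occurs in 0.113% of all 32851 promoters, and of the members Hspa5, Hsp90b1 and Dnajc3 do. They are shown because they are the BiP, GRP94 and Dnajc3 genes whose RNA values stand above, with the motif in capitals, and for Hspd1, the mitochondrial chaperonin, with a heat shock element in capitals.
Hspa5 promoter, chr2:34771995-34772073, plus strand: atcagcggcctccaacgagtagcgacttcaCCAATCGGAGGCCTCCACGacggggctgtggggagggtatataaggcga
Hsp90b1 promoter, chr10:86705608-86705686, minus strand: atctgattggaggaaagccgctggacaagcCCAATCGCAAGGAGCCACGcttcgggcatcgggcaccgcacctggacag
Dnajc3 promoter, chr14:118937797-118937875, plus strand: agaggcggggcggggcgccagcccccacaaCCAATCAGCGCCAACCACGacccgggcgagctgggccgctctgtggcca
Hspd1 promoter, chr1:55088034-55088106, minus strand: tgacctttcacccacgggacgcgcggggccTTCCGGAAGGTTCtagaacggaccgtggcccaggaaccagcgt

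The motif in capitals ends 46 bases before the start in Hspa5, 193 bases in Hsp90b1 and 86 bases in Dnajc3. The searched stretches of Hsp90b1 and Hspd1 hold 2 matches each, of which only the first is in capitals. In Hspd1 the other match overlaps the first and runs on into the small letters after it. The heat shock element was searched on both strands as GAA, TTC and GAA with 2 bases of any kind between them, is held by 0.466% of all promoters, and was found in the searched window of Hspd1 alone among the 35 members. The 7-letter motif TGACGTG, which belongs to the same ER response, was in 1.65% of all promoters and in those of Hspa5 and Dnajc25. A match is a description of the letters and not a site shown to be bound.

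Mitochondrial members did not move as a block. Hspa9, the mitochondrial HSP70 that also pulls proteins through the inner membrane, rose in RNA to 758, 763, 915 and 965 CPM in LUAD, against 432, 424 and 573 CPM in AT2. The groups did not overlap and the log2 fold change was 0.84 ± 0.18 (adjusted p = 0.00766). Hspa9 footprints were 1275, 1390, 1819 and 1941 CPM in LUAD and 452, 1122 and 1142 CPM in AT2, with a log2 fold change of 0.83 ± 0.35 that did not pass (adjusted p = 0.133). Hspd1 had 749, 790, 1503 and 1605 RNA CPM in LUAD and 418, 429 and 1108 CPM in AT2. Here the libraries fell into a low and a high set within both kinds of organoid, the groups overlapped, and the log2 fold change of 0.84 ± 0.44 did not pass (adjusted p = 0.164). With the replicate number as a block Hspd1 passed in RNA at 0.72 (adjusted p = 0.0118), as did Dnaja3, a mitochondrial HSP40, at 0.73 (adjusted p = 0.021, against 0.0553 without the block) and Dnajc11 at -0.56 (adjusted p = 0.0472, against 0.282). The block also brought in the cytosolic Dnajc21 at 0.74 (adjusted p = 0.0365, against 0.0519) and the CCT subunit Cct7 at 0.37 (adjusted p = 0.0372, against 0.12). No label pairs libraries by replicate number, and the correlations between libraries do not follow it. Dnajc11, a protein of the cristae-organising complex, fell in footprints, with 78.9, 65.4, 93.7 and 96.5 CPM in LUAD and 124, 177 and 165 CPM in AT2 (log2 fold change -0.90 ± 0.21, adjusted p = 0.0201). Only 22.3% of its footprint counts fell on coding-type transcripts, and on those alone the change did not pass (adjusted p = 0.255).

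Summed by compartment, ER chaperones took a smaller part of the chaperone RNA in LUAD. The 11 ER members together reached 546, 544, 579 and 679 TPM in LUAD RNA and 1170, 1115 and 683 TPM in AT2 RNA, so that the third AT2 library only just exceeded the highest LUAD library. Most of these sums, with means of 587 TPM in LUAD and 990 TPM in AT2, came from Hspa5 and Hsp90b1. Hspa5 averaged 246 TPM in LUAD RNA and 455 TPM in AT2 RNA, and Hsp90b1, which did not pass, 203 and 290 TPM. The cytosolic members summed to 7620, 7824, 6567 and 6828 TPM in LUAD RNA and 6966, 6821 and 6165 TPM in AT2 RNA, which overlap. The mitochondrial members summed to 478, 491, 621 and 690 TPM in LUAD RNA and 307, 308 and 453 TPM in AT2 RNA, without overlap. ER members thus had 0.0822 ± 0.0142 of the cytosolic TPM in LUAD RNA (SD, n = 4) and 0.147 ± 0.0318 in AT2 RNA (n = 3). In footprints that ratio was 0.158, 0.166, 0.189 and 0.196 in LUAD and 0.273, 0.205 and 0.200 in AT2, with AT2 libraries 2 and 3 close to the highest LUAD library. The ER footprint sums themselves overlapped, with a mean of 1389 ± 307 TPM in LUAD (SD, n = 4) and 1255 ± 732 TPM in AT2 (n = 3). The sums have no test, because the members were chosen with results of these data known.

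**Figure D3:**
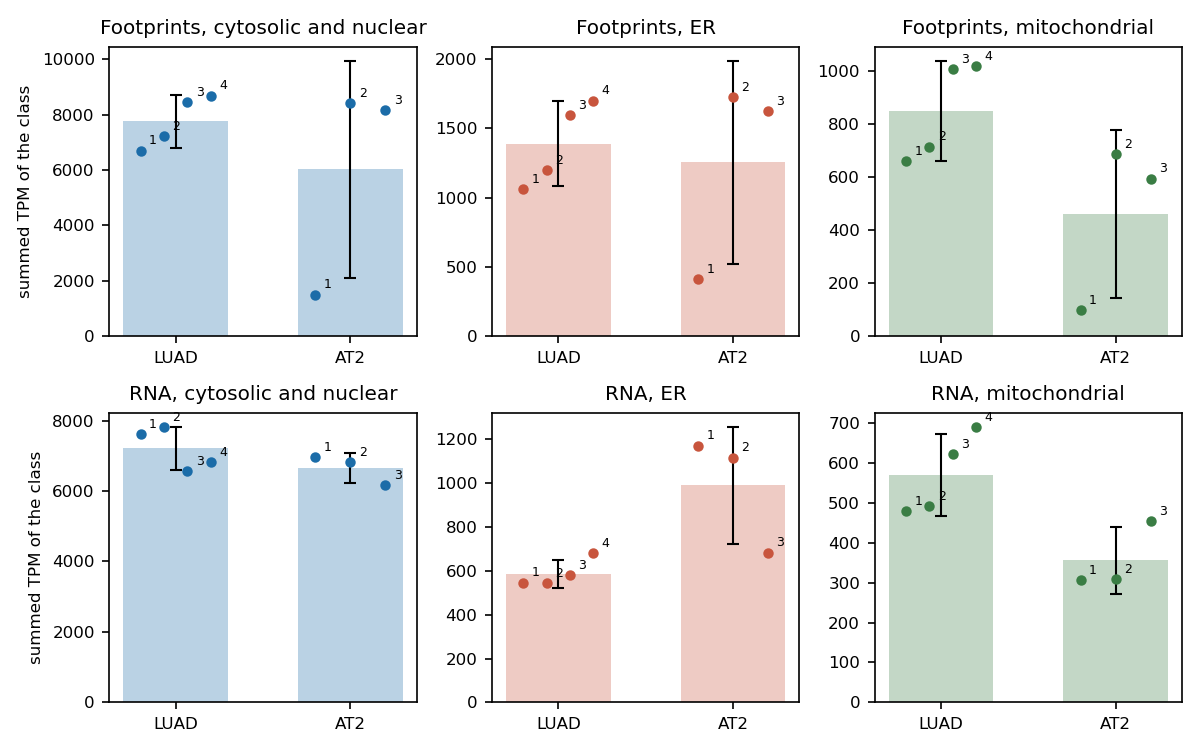
Summed TPM of cytosolic and nuclear, ER and mitochondrial members in each library (points, with the library number), with bars for the mean and lines for ± SD, LUAD (n = 4) beside AT2 (n = 3). In RNA the ER sums lie between 544 and 679 TPM in LUAD and between 683 and 1170 TPM in AT2, and the first AT2 footprint library is low in every class.

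Libraries within each kind of organoid fell into 2 sets, drawn from the data. For RNA, LUAD 1 and 2 stood with AT2 1 and 2, and LUAD 3 and 4 with AT2 3. Within the first set the median log2 ratio over ER members was -0.87, and within the second it was -0.22, with 3 of 10 members above 0. The cytosolic medians were 0.39 in the first set and 0.34 in the second, and the mitochondrial medians 0.83 and 0.49. For footprints, LUAD 1 and 2 stood with AT2 1, and LUAD 3 and 4 with AT2 2 and 3. Their ER medians were -1.06 and -0.43, their cytosolic medians 0.61 and 0.34, and their mitochondrial medians 0.78 and 0.11. What the sets are is not given in the labels.

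Footprints and RNA mostly moved the same way. Of 42 members tested in both assays, 34 had the same sign, and the 5 called in both went the same way in each, namely Hsph1, Dnajc2 and Hspa14 upward and Dnajb11 and Dnajc1 downward. A further 3 members were called in footprints alone and 10 in RNA alone, which does not show that the assays differ for them. The matching shares over all genes were not computed, so these counts do not set chaperones apart from other genes. The difference itself was tested as footprints per RNA, where 0 of 44 members passed in edgeR's test, beside 0.720% of all 7083 genes. An unadjusted p under 0.05 was reached by 2 members, beside 13.7% of all genes, and DESeq2 called 1 member (2.27%), beside 5.29% of all genes. The 2 were Hsp90aa1, given above, and Dnajc30, a mitochondrial J-domain protein. Hsp90aa1 became a member through LUAD lists alone and Dnajc30 through an AT2 list alone, in each case the kind of organoid with its higher footprints. Dnajc30 had 5.07, 4.19, 3.06 and 3.94 footprint CPM in LUAD and 8.89, 9.92 and 11.7 CPM in AT2, while its RNA was 25.3, 26.3, 28.3 and 25.9 CPM in LUAD and 27.8, 21.1 and 25.6 CPM in AT2. The difference of changes was -1.36 ± 0.41 (adjusted p = 0.144), and DESeq2 called it with an adjusted p of 0.00577. In simulated data where 200 genes were changed, the test of footprints per RNA recovered 1% of 2-fold and 32% of 4-fold changes. Most changes of these sizes were missed there, so members that did not pass may still differ.

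**Figure D4:**
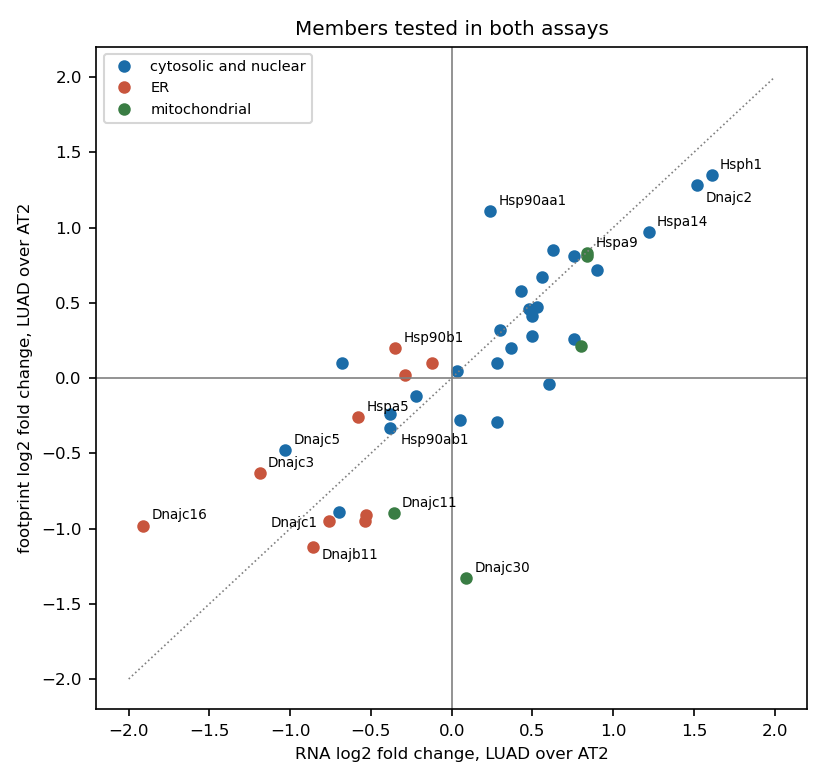
Footprint against RNA log2 fold change of LUAD over AT2 for the 42 members tested in both assays, coloured by compartment, with a dotted line of equal change. Most points lie along the line. Above it lie Dnajc16, at -0.98 in footprints and -1.91 in RNA, and Hsp90aa1, at 1.11 and 0.24. Dnajc30 lies far below the line.

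Many of these calls lay near the threshold and were lost when single libraries were left out. Without single libraries the log2 fold change ranged from 0.54 to 0.65 in Dnajc13 footprints, from 0.51 to 0.62 in Dnaja2 RNA, from 0.47 to 0.64 in Hspa8 RNA and from -0.42 to -0.34 in Hsp90ab1 RNA. The widest range among the called members was 1.01 to 1.64, in Hsph1 footprints. Of the 15 RNA calls, 5 passed under each of 14 alternatives run, including the removal of each library, and these were Hsph1, Dnajc2 and Hspa9, which rose, and Dnajc5 and Dnajc16, which fell. None of the 8 footprint calls passed under all 14. The matching shares over all called genes were not computed, so these counts do not set chaperones apart. Among the 14 was limma on log2(TPM + 1), which moved the footprint median of all genes by 0.63. It called 803 of 6814 genes higher and 143 lower in footprints, so falls could seldom pass it. Of the 8 footprint calls, Dnajc1 alone passed without each single library in turn. The other 7 kept their direction, with an adjusted p of at most 0.121 (Hspa14 without AT2 3), and each lost its call without one or more libraries. Hsph1 lost it without AT2 2 or any LUAD library, Dnajc2 without LUAD 3 or 4, Hspa14 without any AT2 library or LUAD 3 or 4, and Hsp90aa1 without AT2 3 or LUAD 2, 3 or 4. Dnajc13 lost it without any library but AT2 1, Dnajb11 without AT2 2 or 3 or LUAD 1, 2 or 3, and Dnajc11 without AT2 2 or 3 or LUAD 1 or 2. In RNA, Cct8, Dnaja2 and Dnajc3 lost their calls without AT2 1 or AT2 2, Dnajb11 without AT2 2, and Hspa8 without AT2 1, AT2 2 or LUAD 2. Hspa14 lost its RNA call without AT2 1 or 2 or LUAD 3 or 4, and Hspa5 without AT2 1 or 2 or LUAD 1, 2 or 3. Cct2, Dnajc1 and Hsp90ab1 lost theirs without any library but AT2 3. The RNA count was 6 without AT2 1 (14.0% of members, beside 24.0% of all genes), 5 without AT2 2 (11.6%, beside 23.3%) and 25 without AT2 3 (58.1%, beside 47.9%), whose depth was the lowest of the RNA libraries.

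The rest of the folding machinery, a list of 53 genes, gave shares like those of the members. It holds cochaperones, prefoldins, ER folding enzymes and lectins. Also in it are Hsf1 and Hsf2, mitochondrial proteases, the CCT subunit Tcp1, and the HSP-type chaperones Trap1 and Hyou1, whose names the rule does not take. Of 47 paired, 46 were tested in footprints, with 3 higher and 4 lower in LUAD (15.2%, beside 21.3% of all genes). All 47 were tested in RNA, with 6 higher and 9 lower (31.9%, beside 37.0% of all genes). In its ER part, 5 of 12 fell in RNA and 1 rose, beside 18.0% of all genes called lower and 19.0% called higher. P4hb, a protein disulfide isomerase, had 370, 368, 569 and 606 RNA CPM in LUAD and 1590, 1603 and 1286 CPM in AT2 (log2 fold change -1.64 ± 0.22, adjusted p = 0.00114), and its footprints fell too, by 1.37 ± 0.23 on the log2 scale (adjusted p = 0.00561). Calr, a lectin chaperone of glycoproteins, fell in RNA to 785, 781, 1075 and 1149 CPM in LUAD, against 2090, 2014 and 1776 CPM in AT2 (log2 fold change -1.05 ± 0.18, adjusted p = 0.0036). The ER gene that rose was Serpinh1, the collagen chaperone HSP47, with 86.1, 89.2, 48.0 and 66.3 RNA CPM in LUAD and 3.83, 0.967 and 3.10 CPM in AT2. It was far apart in RNA, at 4.82 ± 0.49 on the log2 scale (adjusted p = 0.000305), and in footprints, at 3.91 ± 0.41 (adjusted p = 0.000751), in the same direction as the fibroblast marker Bgn given above.

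Cytosolic cochaperones moved in both directions. Ppid, an HSP90-binding prolyl isomerase, rose in RNA to 192, 209, 317 and 329 CPM in LUAD, against 53.0, 57.2 and 99.3 CPM in AT2 (log2 fold change 1.92 ± 0.31, adjusted p = 0.00243), and in footprints by 1.24 ± 0.24 (adjusted p = 0.00906). Pfdn4, a subunit of prefoldin, which hands actin and tubulin to CCT, rose in footprints to 49.7, 56.7, 97.0 and 81.9 CPM in LUAD, against 9.78, 18.2 and 26.1 CPM in AT2 (log2 fold change 1.95 ± 0.39, adjusted p = 0.0106). Bag3, an HSP70 cochaperone of selective autophagy, fell in RNA, with 50.4, 38.9, 28.2 and 31.2 CPM in LUAD and 168, 175 and 86.5 CPM in AT2 (log2 fold change -1.95 ± 0.30, adjusted p = 0.00199). Stub1, the ubiquitin ligase CHIP that marks HSP70 and HSP90 clients, fell in footprints, with 128, 126, 151 and 149 CPM in LUAD and 374, 348 and 342 CPM in AT2 (log2 fold change -1.35 ± 0.16, adjusted p = 0.00114).

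The ORF lists held 157 distinct ORFs in the 45 members, and each list held some. LUAD libraries listed 115, 59 and 40 member ORFs among 13380, 8122 and 5372 in all (0.859%, 0.726% and 0.745%), and AT2 libraries 14 and 56 among 2597 and 4426 (0.539% and 1.27%). AT2 list 2 thus held more member ORFs than the longer LUAD list 3. Of the 157, 77 were annotated coding sequences, in 40 genes. A further 50, in 21 genes, lay on transcripts with no annotated coding sequence, of which 40 were of the retained-intron type and 10 of the lncRNA type. The remainder were 19 internal ORFs, 6 overlapping the end of a coding sequence, 4 downstream and 1 upstream, the last in Cct8 (chr16:87493781-87495788, minus strand, 21 codons) in a single LUAD library. The share of P-sites (where the peptidyl-tRNA sits in a footprint) that fell in frame over the members' annotated ORFs was 48.5% (exact binomial 95% interval 48.1 to 48.9), 45.3% and 40.9% in LUAD and 46.0% (42.8 to 49.2) and 44.6% in AT2. Over all annotated ORFs of the same libraries it was 47.8%, 46.8% and 44.1% in LUAD and 46.4% and 47.4% in AT2. These intervals cover counting error only, since reads are not independent molecules.

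Hsp90ab1 had the most P-sites of any annotated member ORF, 12935, 2758 and 3716 in LUAD and 2822 in the second AT2 library, over 724 codons. The ORF of Hspa5 was in the same lists, with 4160, 621 and 923 P-sites in LUAD and 400 in the second AT2 library, over 655 codons. The 858-codon ORF of Hsph1 had 2160, 369 and 431 P-sites in LUAD and 112 in the second AT2 library, and the authors' RPKM for it was 33.9, 22.2 and 23.6 in LUAD and 12.9 in AT2. The 612-codon ORF of Hsp90b1 on a retained-intron transcript (chr10:86692032-86701908, minus strand) was in 4 lists, with 4799, 508 and 792 P-sites in LUAD and 345 in the second AT2 library. The 701-codon ORF of Hspa4 on an lncRNA-type transcript (chr11:53264971-53300166, minus strand) was in the same 4 lists, with 1846, 255 and 367 P-sites in LUAD and 212 in AT2. Since reads from a shared exon count toward each transcript that holds it, these counts cannot be told apart from those of the coding transcripts. With 3 against 2 libraries no two-sided exact permutation test can pass, so the lists were not tested.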

How the data were processed

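Footprint and RNA tables hold estimated counts and TPM per transcript, which the authors made with kallisto per the submitters' processing notes. Version, transcript release and RNA library preparation are not given in those notes or labels. The ORF lists, on genome build mm10 per those notes, give per the file headers P-site counts by frame, an RPKM value and the authors' p-value, none of which exceeds 0.05. Which caller made them is not recorded there.

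Gene names for transcripts came from the ORF lists alone (22509 of 118489, from 65.0% to 70.0% of a library's counts), which favours genes translated in LUAD, since 56.7% of genes and 44.4% of members come from LUAD lists alone and 7.7% and 6.7% from AT2 lists alone. For the members 153 of 159 paired transcripts were in the tables, and Hspb1, Dnajb9 and Hspe1 were not analysed here. Estimated counts were summed to genes, rounded and fitted over all genes in R 4.3.3 with the quasi-likelihood test of edgeR 4.0.16 (robust, after filterByExpr and TMM), and p-values were adjusted by Benjamini-Hochberg and called under 0.05. Footprints and RNA were fitted apart, and their ratio by a tissue-by-assay interaction. CPM use TMM-scaled library sizes. Alternatives were DESeq2 1.42.0, its size factors in edgeR, scaling on all transcripts, no filter, the replicate number as a block, limma 3.58.1 on log2(TPM + 1), coding-type transcripts alone (chosen after seeing the data), and leaving out each library. Reads of overlapping genes and of near-identical copies cannot be told apart.

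Same-numbered RNA libraries varied alike around their group means (correlations 0.29, 0.23 and 0.33 over 3 pairs), but so did libraries of unlike number (LUAD 1 with AT2 2 at 0.25, LUAD 2 with AT2 1 at 0.25, LUAD 4 with AT2 3 at 0.34). The main tests used no pairing. The numbers served as pairs only in the block alternative, because every same-numbered RNA pair passed 0.1. The correlations follow 2 sets of libraries and not the number, and no label gives a pairing. No replicates agreed within sampling noise (lowest mean chi-square over genes 5.42). In simulated counts where 200 genes were changed, 8% of the 2-fold and 66% of the 4-fold changes came back in footprints (6814 genes) and 25% and 79% in RNA (6942 genes), and each called 6 unchanged genes. Values are given for a core list fixed by role, for the members with the largest changes past the test, up to 6 per direction and comparison, with a mean of at least 50 counts and no overlap between groups, and for up to 3 other machinery genes per direction. The members and lists were chosen with earlier results of these data known. Hspa4, Dnaja2, Hspa8, Hsp90ab1, Cct7, Dnajc21 and Dnajc30 values beyond that rule were chosen after they were seen.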

Additional observations from a re-analysis of the deposited data

How the results depend on the processing

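Against 8 members called in footprints, DESeq2 called 13 (all genes, 30.6%), limma on log2(TPM + 1) called 2 (13.9%) and coding-type transcripts alone gave 5 (18.0%). The replicate number as a block gave 3 in footprints (13.7%), where the numbers pair no libraries (correlations 0.42, -0.36 and 0.34), and 19 in RNA (37.5%). Without single libraries the footprint count ranged from 2 to 8, as the share of all genes ranged from 12.5% to 27.2%, and the RNA count from 5 to 25 (23.3% to 47.9%). In footprints per RNA, DESeq2 gave 1 (5.29%) and the count ranged from 0 to 1 without single libraries, the 1 being Dnajc30 in both cases. The RNA log2 ratio of the cytosolic sum was 0.12, 0.36 without Hsp90ab1, the most abundant member over both assays, and -0.02 without Hspa8, the most abundant in RNA (an alternative chosen after seeing the data). At an authors' p of at most 0.01, 99 of 157 ORFs were left. None of the called values changed sign. Among values that did not pass, limma turned footprint changes of Dnajb1 to 0.34, Dnajc3 to 0.02, Dnajc5 to 0.38, Hsp90ab1 to 0.15, Hspa4 to 0.53 and Hspa5 to 0.13, as it moved the median of all genes by 0.63, and RNA changes of Cct3 to -0.0, Cct5 to -0.06 and Dnajc13 to -0.06. Hspa4 footprints stood at 0.04 with scaling on all transcripts and at 0.0 on coding-type transcripts. The block turned Cct5 RNA to -0.01 and Dnaja1 RNA to 0.30, and changed no RNA call other than those given. Without single libraries the footprint change ranged from -0.12 to 0.41 in Cct3, from -0.24 to 0.27 in Cct5, from -0.05 to 0.39 in Dnaja3 and from -0.34 to 0.05 in Hspa4, and the RNA change from -0.08 to 0.22 in Cct5 and from -1.36 to 0.89 in Dnaja1. The cause was not tested. Depth limits the AT2 side most, and an AT2 footprint library holds at most 3.83 M estimated counts.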

Other observations

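The pair of cytosolic HSP90 genes differed in balance within each library, a comparison that does not depend on how libraries are scaled and was chosen after the values were seen. Hsp90aa1, the stress-inducible gene, had 14.3%, 18.8%, 16.0% and 15.7% of the footprint CPM of Hsp90ab1 in LUAD and 7.69%, 6.77% and 4.22% in AT2. In RNA the share was 25.7%, 28.7%, 37.5% and 35.0% in LUAD and 22.6%, 21.3% and 17.3% in AT2. The LUAD shares lay above the AT2 shares in both assays. No test was run on these shares, which count reads and not molecules per length.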
